A study of Mus musculus with 12 samples.

Results

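The 10 genes around the tumor suppressor p53 described here, in cultured mouse hematopoietic stem cells (HSCs), are Trp53, which encodes p53, the p53 inhibitors Mdm2 and Mdm4, and 7 genes that p53 is known to switch on, Ccng1, Ppm1d, Zmat3, Trp53inp1, Trp53cor1, Rrm2b and Plk2. They were taken by symbol from the 53465 genes of the deposited count table, and each of the 10 matched 1 Ensembl identifier. Long-term HSCs (LT-HSCs) and short-term HSCs (ST-HSCs) had been sorted from bone marrow as cells that lacked lineage antigens and CD48 and carried Kit, Sca1 and CD150. LT-HSCs lacked CD34 and ST-HSCs carried it. The cytokines of the 2-day culture, in Stemline II, were SCF at 100 ng/ml and Flt3 at 2 ng/ml, and the treated cultures also received 1 mM nicotinamide riboside (NR), a vitamin B3 form from which cells make NAD, which was renewed after 24 h. The 4 groups of 3 samples were LT-HSCs with NR, LT-HSCs without NR (control), ST-HSCs with NR and ST-HSCs without NR (control). The labels give no strain, age or sex of the mice, and none says whether the samples of a group were separate mice or cultures, so the spread behind each p-value is that between these libraries and may be technical.

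p53 is a transcription factor that is made continuously and degraded quickly in unstressed cells, so its activity is set largely at the protein level. Mdm2 is the ubiquitin ligase that sends p53 to the proteasome, and its relative Mdm4 covers the activation domain of p53. Damage kinases loosen both from p53, which then binds its response elements as a tetramer and switches on genes of arrest, repair and death as well as genes that switch p53 off again, Mdm2 among them. In HSCs p53 is known as a brake on cell cycle entry.

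Libraries held 24.6 M to 35.5 M gene counts. Reads in no feature, which overlap no region used for counting and may still lie within introns, made up 8.69% to 28.5%. The highest shares were in sample 3 of the NR LT-HSCs (28.5%) and sample 3 of the NR ST-HSCs (26.2%). These 2 libraries lay above the 17% that the other 10 reached at most. Levels are given as CPM, counts divided by the library size after TMM scaling and put on the usual common scale. Transcripts of the sort markers were checked after culture. Cd34 averaged 242 ± 21 CPM in NR LT-HSCs and 259 ± 11.5 in control LT-HSCs, and 704 ± 37.7 in NR ST-HSCs and 627 ± 18.8 in control ST-HSCs (SD, n = 3 each). Kit was high in all groups (1380 to 1550 CPM on average) and Cd48 low (0.827 to 5.07 CPM). Ly6a, which encodes Sca1, averaged 32.7 ± 8.27 and 37.6 ± 9.39 CPM in NR and control LT-HSCs, and 8.04 ± 2.18 and 6.24 ± 1.00 CPM in NR and control ST-HSCs. The CD150 gene Slamf1 averaged 29.4 ± 5.36 and 39.0 ± 4.17 CPM in NR and control LT-HSCs, and 12.1 ± 1.54 and 18.9 ± 1.29 CPM in NR and control ST-HSCs, where it fell by 0.65 ± 0.14 on the log2 scale (edgeR adjusted p = 0.0063).

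Promoter windows from RefSeq (GRCm38.p6, 250 bases before to 50 bases after a gene's start) existed for 6 of the 10 genes, in 7 windows: 1 each for Trp53, Mdm2, Ccng1, Ppm1d and Plk2 and 2 for Mdm4. They are shown because p53 acts by binding DNA. The windows were searched for the p53 consensus half-site, a 10-base motif that reads the same on both strands, and for the full element, 2 half-sites side by side (20 bases) with at most 1 mismatch. The Ccng1 window held a full element, with 1 mismatch, that begins 195 bases before the start; across the genome 29 of 32851 windows (0.0883%) held one. This window (chr11:40755237-40755536, minus strand) is printed 5′ to 3′ with the element in capitals.
Ccng1: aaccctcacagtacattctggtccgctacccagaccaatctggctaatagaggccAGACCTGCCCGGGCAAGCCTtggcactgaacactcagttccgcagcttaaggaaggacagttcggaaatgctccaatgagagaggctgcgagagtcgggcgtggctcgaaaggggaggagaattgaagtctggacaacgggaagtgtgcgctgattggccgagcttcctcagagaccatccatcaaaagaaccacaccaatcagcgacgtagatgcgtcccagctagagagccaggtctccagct

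Perfect half-sites without a full element stood in the windows of Trp53, Mdm2 and Ppm1d, while the Plk2 window and both Mdm4 windows held neither motif. A perfect half-site was present in 4 of the 7 windows, counting that of Ccng1, and in 2745 of all 32851 windows (8.36%). The 3 sites are shown with 20 bases on either side and the half-site in capitals: Trp53 at chr11:69580264-69580313 (plus strand), Mdm2 at chr10:117710915-117710964 (minus strand) and Ppm1d at chr11:85311102-85311151 (plus strand). The Mdm2 window covers its RefSeq start, and the promoter through which p53 is known to raise Mdm2 lies in the first intron and was not searched.
Trp53: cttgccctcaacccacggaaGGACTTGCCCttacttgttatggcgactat
Mdm2: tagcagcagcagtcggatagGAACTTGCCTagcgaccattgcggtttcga
Ppm1d: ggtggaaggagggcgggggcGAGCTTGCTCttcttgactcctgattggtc

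The Trp53 transcript itself (ENSMUSG00000059552) was called neither higher nor lower with NR in either cell type, but the block by sample number changed the call in LT-HSCs. Samples 1, 2 and 3 had 256, 278 and 242 CPM in NR LT-HSCs, against 292, 303 and 290 CPM in control LT-HSCs. All 3 NR values lay below the lowest control, but the log2 change of -0.19 ± 0.08 (SE) missed the threshold (edgeR adjusted p = 0.16, 95% interval -0.35 to -0.02). A fit with sample number as block gave -0.19 ± 0.06 and called it lower (edgeR adjusted p = 0.044). In ST-HSCs the values were 310, 315 and 259 CPM with NR and 323, 320 and 299 CPM in control, and the groups overlapped (log2 change -0.09 ± 0.08, edgeR adjusted p = 0.57). The lowest value in each cell type came from NR sample 3, a library with many reads in no feature. Without these 2 libraries the change was -0.12 in LT-HSCs (edgeR adjusted p = 0.32) and 0.07 in ST-HSCs (edgeR adjusted p = 0.56).

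Mdm2 (ENSMUSG00000020184), the ubiquitin ligase of p53, rose with NR in ST-HSCs. NR LT-HSCs had 121, 134 and 126 CPM, against 104, 111 and 104 CPM in control LT-HSCs. The NR ST-HSC samples reached 146, 166 and 149 CPM, against 96.9, 114 and 100 CPM in control ST-HSCs. Neither pair of groups overlapped. The change passed in ST-HSCs (log2 change 0.57 ± 0.08, 1.48-fold, edgeR adjusted p = 0.00031) and missed in LT-HSCs (0.25 ± 0.08, 1.19-fold, edgeR adjusted p = 0.057). In LT-HSCs it passed under 9 of 16 other settings, the sample number as a block among them (edgeR adjusted p = 0.0095), with adjusted p from 0.00018 to 0.17.

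Mdm4 (ENSMUSG00000054387), which encodes the inhibitor without ligase activity of its own, scattered widely within LT-HSCs. NR LT-HSC samples had 168, 116 and 118 CPM and control LT-HSC samples 142, 83.6 and 113 CPM, so the groups overlapped (log2 change 0.25 ± 0.17, edgeR adjusted p = 0.46). NR ST-HSC samples had 138, 135 and 124 CPM and control ST-HSC samples 128, 131 and 133 CPM, a log2 change of 0.01 with a 95% interval from -0.35 to 0.37 (edgeR adjusted p = 0.99). The mean of 6 NR against 6 control samples did not pass either (0.13 ± 0.12, edgeR adjusted p = 0.53).

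Ppm1d (ENSMUSG00000020525) encodes Wip1, a phosphatase that removes activating phosphates from p53 and from the kinase Atm. It had 60.7, 69.4 and 57.9 CPM in NR LT-HSCs, against 57.4, 55.8 and 53.8 CPM in control LT-HSCs. In ST-HSCs the samples had 62.0, 69.9 and 64.9 CPM with NR and 60.1, 59.5 and 51.7 CPM in control. The groups did not overlap in either cell type, yet neither small change passed (log2 0.17 ± 0.09, edgeR adjusted p = 0.29 in LT-HSCs, and 0.20 ± 0.09, edgeR adjusted p = 0.15 in ST-HSCs). In ST-HSCs Ppm1d passed under 5 of 16 other settings, with adjusted p from 0.0062 (DESeq2) to 0.48. In LT-HSCs it passed under 2 of 16, DESeq2 (adjusted p = 0.042) and a filter at 5 CPM (edgeR adjusted p = 0.029). Averaged over both cell types it passed narrowly (0.19 ± 0.06, edgeR adjusted p = 0.044), and this call ended without NR sample 2 or control sample 1, 2 or 3 of the LT-HSCs and without NR sample 2 or control sample 2 or 3 of the ST-HSCs.

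Ccng1 (ENSMUSG00000020326), whose cyclin G1 recruits a phosphatase to Mdm2 and thereby favours p53 turnover, rose in both cell types. It had 363, 323 and 302 CPM in NR LT-HSCs, against 161, 171 and 132 CPM in control LT-HSCs, a 2.13-fold rise (log2 1.09 ± 0.11, edgeR adjusted p = 0.00015). NR ST-HSCs had 569, 449 and 434 CPM, against 144, 151 and 148 CPM in control ST-HSCs, 3.28-fold higher (log2 1.71 ± 0.11, edgeR adjusted p = 2.1e-06). In both cell types the lowest NR sample lay far above the highest control sample. This is the gene whose promoter window, printed above, held the full p53 element.

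Trp53inp1 (ENSMUSG00000028211) encodes a stress protein that aids phosphorylation of p53 and takes part in autophagy, and it had the largest NR change of the 10 genes in both cell types. Its values were 82.3, 60.2 and 68.8 CPM in NR LT-HSCs, against 20.4, 16.1 and 15.7 CPM in control LT-HSCs, and 128, 107 and 102 CPM in NR ST-HSCs, against 15.1, 17.1 and 15.6 CPM in control ST-HSCs. That made 4.04-fold in LT-HSCs (edgeR adjusted p = 1.5e-05) and 7.05-fold in ST-HSCs (edgeR adjusted p = 3.3e-07). Among all 19830 genes tested it ranked 3 by p in each cell type.

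Trp53cor1 (ENSMUSG00000085912), the long noncoding RNA also called lincRNA-p21, is transcribed away from the p21 gene Cdkn1a on chromosome 17, with the starts of both genes 11.8 kb apart in the GENCODE M21 annotation (GRCm38). NR LT-HSCs had 7.41, 7.86 and 7.18 CPM, against 2.74, 2.46 and 2.17 CPM in control LT-HSCs. NR ST-HSCs had 10.7, 12.7 and 10.2 CPM, against 2.16, 2.86 and 2.60 CPM in control ST-HSCs. The NR samples were well separated from the controls in both (log2 1.60 ± 0.16, edgeR adjusted p = 0.00011 in LT-HSCs, and 2.14 ± 0.16, edgeR adjusted p = 3.8e-06 in ST-HSCs). Its neighbour Cdkn1a rose by 1.44 ± 0.11 and 2.72 ± 0.11 on the log2 scale in LT-HSCs and ST-HSCs. A noncoding gene on the opposite strand shares 44.1% of the exonic bases of Trp53cor1. The strand setting of the counting is not given in the sources used here. It is therefore not known whether reads from the shared bases were counted for Trp53cor1, for the other gene or as ambiguous.

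Zmat3 (ENSMUSG00000027663), a zinc finger RNA-binding protein gene known as a p53 target, also rose in both cell types. It had 15, 13.3 and 15 CPM in NR LT-HSCs, against 7.92, 8.17 and 5.88 CPM in control LT-HSCs (log2 0.98 ± 0.18, edgeR adjusted p = 0.0042). NR ST-HSCs had 22.2, 17.7 and 18.8 CPM, against 4.99, 7.94 and 5.36 CPM in control ST-HSCs (log2 1.69 ± 0.18, edgeR adjusted p = 5.8e-05). No NR sample overlapped a control sample of its cell type.

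Rrm2b (ENSMUSG00000022292), the p53-inducible ribonucleotide reductase subunit that supplies nucleotides for DNA repair, did not pass in either cell type. It had 14.6, 10.1 and 13.3 CPM in NR LT-HSCs, against 11.8, 13.2 and 8.20 CPM in control LT-HSCs, and the groups overlapped (log2 0.19 ± 0.20, edgeR adjusted p = 0.66, 95% interval -0.23 to 0.62). NR ST-HSCs had 15.4, 12.9 and 12.9 CPM, against 8.20, 11.3 and 11.9 CPM in control ST-HSCs, which did not overlap (log2 0.39 ± 0.20, edgeR adjusted p = 0.22, 95% interval -0.03 to 0.82). Averaged over both cell types Rrm2b did not pass (0.29 ± 0.14, edgeR adjusted p = 0.16). It did so under 2 of 21 other settings, no filter (edgeR adjusted p = 0.047) and a filter at 5 CPM (edgeR adjusted p = 0.044). An antisense gene shares 8.04% of the exonic bases of Rrm2b.

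Plk2 (ENSMUSG00000021701), a Polo-like kinase with a part in centriole duplication and a known p53 target, rose in both cell types. NR LT-HSCs had 11.4, 12.4 and 15.2 CPM, against 3.93, 4.48 and 6.74 CPM in control LT-HSCs (2.58-fold, log2 1.37 ± 0.21, edgeR adjusted p = 0.0015). NR ST-HSCs had 9.85, 7.95 and 9.95 CPM, against 1.44, 2.11 and 1.65 CPM in control ST-HSCs (5.33-fold, log2 2.41 ± 0.22, edgeR adjusted p = 1.9e-05). The control ST-HSC samples lay below all other samples.

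**Figure D1:**
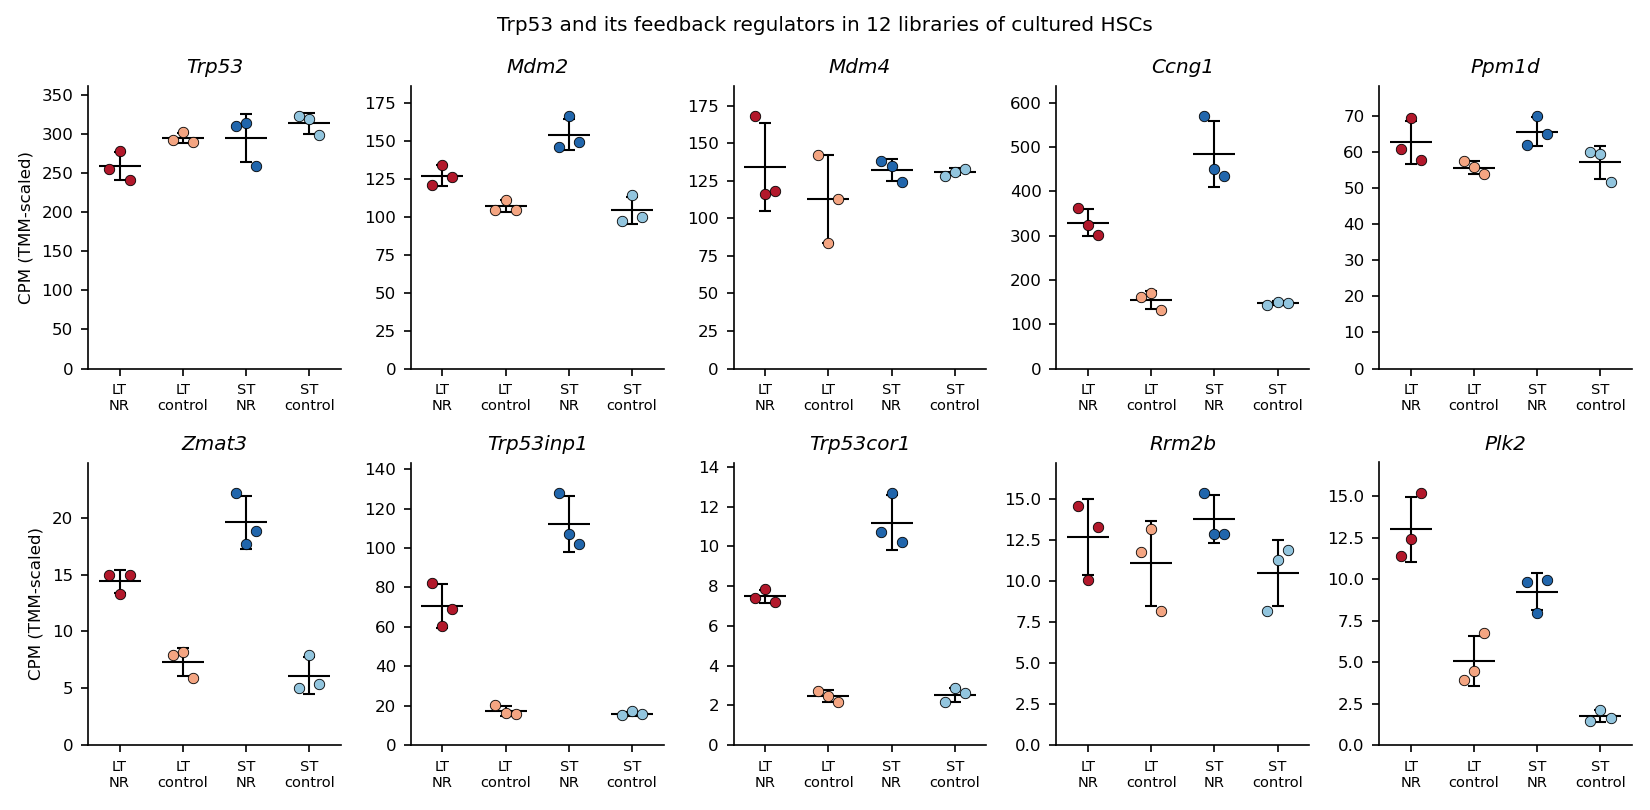
CPM (TMM-scaled, linear axes from 0) of the 10 genes in each library, with NR left of control for LT-HSCs (red and orange) and ST-HSCs (dark and light blue); each point is 1 library, and the bar and whiskers are the mean ± SD of 3. Ccng1, Zmat3, Trp53inp1, Trp53cor1 and Plk2 stand apart from control in both cell types, whereas the Trp53 samples lie between 242 and 323 CPM throughout.

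NR raised 5 of the 10 genes in LT-HSCs (Ccng1, Zmat3, Trp53inp1, Trp53cor1 and Plk2) and lowered 0 by edgeR. Of all 19830 genes tested, 2.38% were called higher and 7.58% lower. At an unadjusted p under 0.05 there were 6 higher and 1 lower, namely Trp53, where 6.99% of all genes were higher and 14.6% lower. With DESeq2 or limma-voom 0 of the 10 were lower, against 8.56% and 8.65% of all genes. DESeq2 also called Mdm2 (adjusted p = 0.00018) and Ppm1d (adjusted p = 0.042) higher. The number of all genes called higher grew as well. It was 472 in the main fit and 521 to 1261 under the settings other than leaving out a single sample, DESeq2 among them. Blocking by sample number gave 6 higher and 1 lower, the additions being Mdm2 and Trp53, against 3.38% and 9.57% of all genes. The median log2 change of the 10 genes was 0.61, against 0.04 over all genes tested.

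In ST-HSCs the same 5 genes and Mdm2 were higher, 6 of 10, and 0 were lower by edgeR, against 5.82% higher and 11.1% lower over all genes tested. Unadjusted, 7 were higher and 0 lower, against 9.63% and 17.6% of all genes. DESeq2 and limma-voom also called 7 higher and 0 lower, against 10.3% and 10% of all genes with DESeq2 and 6.95% and 12.5% with limma-voom. The median log2 change was 1.13 for the 10 genes and -0.03 for all genes tested. The split of calls over all genes moved with the scaling: 23.9% of calls in LT-HSCs and 34.5% in ST-HSCs were rises, against 37.4% and 51.7% with relative log expression factors and 35.3% and 47.9% with upper-quartile factors. Averaged over both cell types, 7 of the 10 genes were higher (the 6 above and Ppm1d) and 0 lower by edgeR, with 7.88% of all genes higher and 16.1% lower, or 32.9% rises among the calls (48.5% with relative log expression and 46.0% with upper-quartile factors). Unadjusted, 7 were higher and 1 lower, Trp53 (log2 -0.14 ± 0.05, edgeR adjusted p = 0.084), against 11.7% and 20.7% of all genes. It passed with the sample number as a block (edgeR adjusted p = 0.018), a setting that called 17.9% of all genes lower. With the share of reads in no feature as a covariate it passed too (edgeR adjusted p = 0.046), where 17.7% of all genes were lower. Neither DESeq2 nor limma-voom called it, while they called 13.7% and 16.5% of all genes lower.

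**Figure D2:**
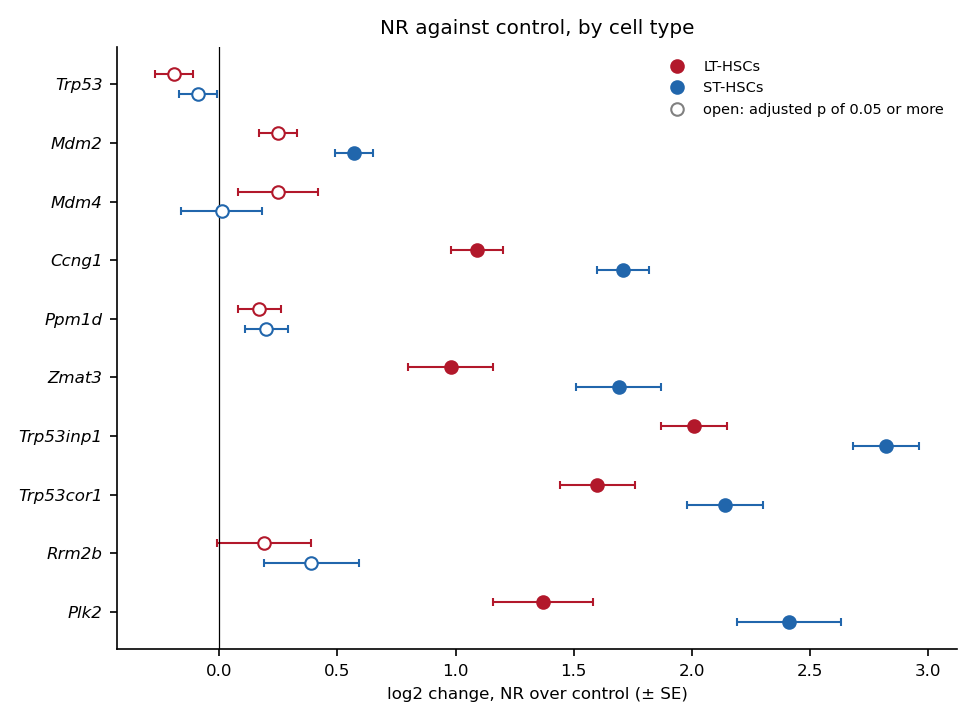
Log2 change of NR over control for each gene in LT-HSCs (red) and ST-HSCs (blue), with its standard error; filled points passed an edgeR adjusted p of 0.05. Trp53 and the 2 inhibitor genes stay within 0.57 of 0, while Trp53inp1 reaches 2.01 in LT-HSCs and 2.82 in ST-HSCs.

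The difference between the NR effects, LT-HSCs minus ST-HSCs on the log2 scale, had a median of -0.43 over the 10 genes and 0.05 over all genes tested. It was above 0 for Mdm4 (0.24 ± 0.24). For Ppm1d (-0.03 ± 0.12), Trp53 (-0.10 ± 0.11) and Rrm2b (-0.20 ± 0.28) it was smaller than its SE. By the test of the difference itself, 0 of 10 passed in either direction by edgeR, against 0% higher and 0.0101% lower (2 genes) of all genes tested; with upper-quartile factors 1 gene was higher and 5 were lower. At an unadjusted p under 0.05 the NR effect was lower in LT-HSCs for 6 of the 10 and higher for 0, against 3.17% and 2.89% of all genes. These 6 were Plk2 (log2 difference -1.05 ± 0.30, edgeR adjusted p = 0.5), Trp53inp1 (-0.80 ± 0.19, edgeR adjusted p = 0.31), Zmat3 (-0.71 ± 0.25, edgeR adjusted p = 0.64), Ccng1 (-0.62 ± 0.16, edgeR adjusted p = 0.4), Trp53cor1 (-0.53 ± 0.22, edgeR adjusted p = 0.75) and Mdm2 (-0.32 ± 0.11, edgeR adjusted p = 0.62). DESeq2 called 3 of them lower in LT-HSCs (Ccng1 and Trp53inp1, each adjusted p = 0.018, and Mdm2, adjusted p = 0.05 and below it before rounding) and limma-voom 0, against 0.479% and 0.0151% of all genes. Both tools called 0 of the 10 higher, against 0.207% of all genes with DESeq2 and 0.0101% with limma-voom. The 2 genes of the whole table that edgeR called were the p53 targets Cdkn1a (-1.28 ± 0.15, edgeR adjusted p = 0.023) and Phlda3 (-1.57 ± 0.21, edgeR adjusted p = 0.048), which are not among the 10.

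Cell types were also compared within each culture. In control culture 1 of the 10 genes was higher in LT-HSCs than in ST-HSCs, Plk2 (5.05 ± 1.49 CPM in LT-HSCs and 1.74 ± 0.34 CPM in ST-HSCs, SD, n = 3 each; log2 1.54 ± 0.22, edgeR adjusted p = 0.00097), and 0 were lower. Over all genes 3.51% were higher and 1.5% lower. Unadjusted, 1 was again higher and 0 lower, against 8.68% and 6.19% of all genes, and 0 were lower with DESeq2 or limma-voom, against 2.71% and 3.67% of all genes. The other 9 genes had log2 differences between -0.22 (Mdm4) and 0.27 (Zmat3), and their groups overlapped. Their 95% intervals reached from -0.58 for Mdm4 to 0.66 for Zmat3 at the widest, and for Trp53 from -0.26 to 0.07.

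Under NR 3 of the 10 genes were lower in LT-HSCs than in ST-HSCs: Trp53inp1 (log2 -0.67 ± 0.13, edgeR adjusted p = 0.0065), Ccng1 (-0.56 ± 0.11, edgeR adjusted p = 0.0088) and Trp53cor1 (-0.58 ± 0.15, edgeR adjusted p = 0.035). By edgeR 0 were higher, and over all genes 3.8% were higher and 2.27% lower. At an unadjusted p under 0.05 there were 6 lower and 1 higher, Plk2 (0.49 ± 0.20, edgeR adjusted p = 0.22), against 7.2% lower and 9.75% higher over all genes. DESeq2 and limma-voom called 0 higher, against 5.58% and 3.41% of all genes. Trp53 did not pass (-0.19 ± 0.08, edgeR adjusted p = 0.21) but did under 4 of 16 other settings, with adjusted p from 0.025 to 0.61. Mdm2 just missed (-0.28 ± 0.08, edgeR adjusted p = 0.05 and above it before rounding). It passed under 8 of 16 other settings, with adjusted p from 0.00042 to 0.17. The sample number as a block was among them (edgeR adjusted p = 0.0065) and made 4 genes lower, against 3.17% of all genes. Mdm2 had no overlap between 121 to 134 CPM in LT-HSCs and 146 to 166 CPM in ST-HSCs. Zmat3 did not overlap either (13.3 to 15 CPM in LT-HSCs, 17.7 to 22.2 CPM in ST-HSCs; edgeR adjusted p = 0.19). Without NR LT-HSC sample 2 none of the 3 passed (edgeR adjusted p = 0.07 for Trp53inp1, 0.082 for Ccng1 and 0.081 for Trp53cor1). Without NR ST-HSC sample 3 there were 5 lower, with Trp53 (edgeR adjusted p = 0.026) and Mdm2 (edgeR adjusted p = 0.027) added. Over all genes, leaving out each sample gave 306 to 520 lower, against 451 in the main fit. The call for Trp53cor1 also ended without NR sample 1 or 3 of the LT-HSCs and without NR sample 1 or 2 of the ST-HSCs. It ended too with no filter on low counts (edgeR adjusted p = 0.18). The same held without both libraries with many reads in no feature (log2 -0.64 ± 0.20, edgeR adjusted p = 0.095).

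**Figure D3:**
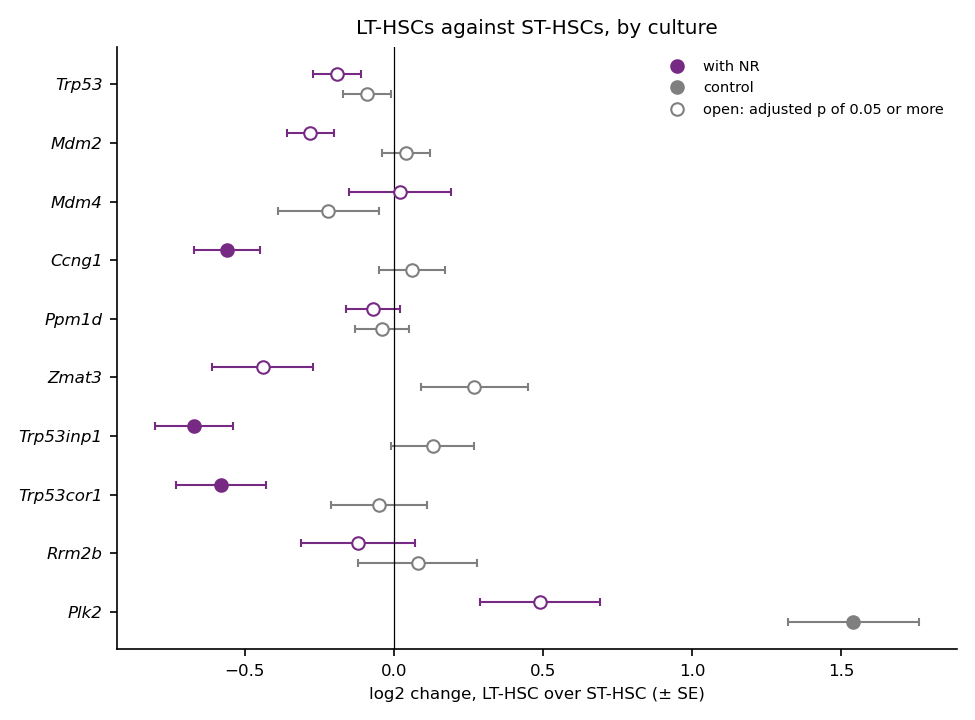
Log2 difference of LT-HSCs over ST-HSCs for each gene with NR (purple) and in control culture (grey), with its standard error; filled points passed an edgeR adjusted p of 0.05. In control culture Plk2 alone passed, and with NR only Ccng1, Trp53inp1 and Trp53cor1, whose points lie between -0.67 and -0.56.

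The order of the 4 groups was not the same for every gene. For Mdm2, Ccng1, Zmat3, Trp53inp1 and Trp53cor1 NR ST-HSCs were highest and NR LT-HSCs next, and the control groups overlapped each other. For Plk2 the order was NR LT-HSCs (13.0 ± 1.97 CPM), NR ST-HSCs (9.25 ± 1.13 CPM), control LT-HSCs (5.05 ± 1.49 CPM) and control ST-HSCs (1.74 ± 0.34 CPM), with no overlap between neighbours, although the difference of the NR groups did not pass (edgeR adjusted p = 0.22). For Ppm1d both NR groups overlapped each other, as did both control groups. For Trp53 the NR LT-HSCs averaged lowest and overlapped the NR ST-HSCs. For Mdm4 and Rrm2b both cell types overlapped in each culture. On the scale of CPM per kilobase of annotated exon, which allows levels of different genes to be compared, Ccng1 (93.8 ± 8.84) stood above Trp53 (64.0 ± 4.50) in NR LT-HSCs, whereas in control LT-HSCs Ccng1 (44.0 ± 5.70) stood below Trp53 (72.9 ± 1.68). In ST-HSCs the levels per kilobase were 138 ± 21.2 for Ccng1 and 72.9 ± 7.68 for Trp53 with NR, and 42.1 ± 1.08 and 77.7 ± 3.28 in control. Mdm2 came next in control culture (21 ± 0.81 in LT-HSCs and 20.4 ± 1.79 in ST-HSCs), and Zmat3, Trp53cor1, Plk2 and Rrm2b were at 0.387 to 1.21 per kilobase on average in the control groups. Exon lengths join all annotated transcripts, which lowers the value of genes with long alternative ends.

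Other genes of the pathway were read from lists that were chosen with earlier results of these data known, and their counts stand beside the shares of all genes given above (2.38% higher and 7.58% lower in LT-HSCs, 5.82% and 11.1% in ST-HSCs). Of 40 further p53 targets, all of them tested, NR raised 18 and lowered 1 in LT-HSCs, and raised 26 and lowered 1 in ST-HSCs, with a median log2 change of 0.40 and 0.59. The smallest p-values among the rises belonged in both cell types to Cdkn1a, the Akt inhibitor gene Phlda3 (log2 1.77 ± 0.15 in LT-HSCs and 3.35 ± 0.16 in ST-HSCs), the death receptor gene Eda2r (2.25 ± 0.18 and 3.34 ± 0.19), the mTOR brake gene Sesn2 (0.71 ± 0.07 and 1.16 ± 0.08) and the cytokine gene Gdf15 (1.78 ± 0.19 and 2.78 ± 0.20). The fall was that of Fdxr, the ferredoxin reductase gene (-0.45 ± 0.09 and -0.38 ± 0.09), in both. In the comparison of LT-HSCs with ST-HSCs, 2 of the 40 were higher and 13 lower under NR, against 3.8% and 2.27% of all genes. In control culture 4 were higher and 1 lower, against 3.51% and 1.5% of all genes.

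Among 24 tested genes of kinases, acetylases and other cofactors that act upstream on p53, 7 were lower in LT-HSCs, and 1 was higher and 8 lower in ST-HSCs. The falls with the smallest p included Npm1 (-0.56 ± 0.06 in LT-HSCs and -0.54 ± 0.06 in ST-HSCs) and Rpl5 (-0.52 ± 0.08 and -0.43 ± 0.08), a nucleolar protein gene and a ribosomal protein gene whose products are known to bind Mdm2, and Usp10 (-0.33 ± 0.07 and -0.40 ± 0.07), a deubiquitinase that stabilises p53. The ribosomal protein genes Rpl11 and Rpl23 each fell by 0.28 ± 0.07 in LT-HSCs, and Rpl11 fell by 0.25 ± 0.07 in ST-HSCs. The DNA damage kinase gene Prkdc fell by 0.39 ± 0.11 in LT-HSCs and 0.84 ± 0.12 in ST-HSCs. In ST-HSCs the checkpoint kinase gene Chek1 fell by 0.38 ± 0.08, and the p53 cofactor gene Ppp1r13b rose by 0.89 ± 0.23. Among 17 tested genes of other p53 ligases, deacetylases and repressors, 1 was higher and 2 lower in LT-HSCs and 1 higher and 4 lower in ST-HSCs. The repressor gene Bcl6 rose by 0.62 ± 0.11 in LT-HSCs and 0.75 ± 0.11 in ST-HSCs, and the ligase gene Huwe1 fell by 0.40 ± 0.10 and 0.70 ± 0.10. Hdac2 fell by 0.30 ± 0.07 in each cell type, and Hdac1 and Sirt1 by 0.29 ± 0.07 and 0.52 ± 0.14 in ST-HSCs.

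Of 17 tested paralogs of the 10 genes, 1 was higher and 1 lower in LT-HSCs, and 1 higher and 3 lower in ST-HSCs, next to 2.38% higher and 7.58% lower of all genes in LT-HSCs and 5.82% and 11.1% in ST-HSCs, so these counts are not read as a result about the paralogs. The rise was that of Ccng2, the sister gene of Ccng1 (0.63 ± 0.12 in LT-HSCs and 0.55 ± 0.12 in ST-HSCs). Zmat2 fell by 0.29 ± 0.08 and 0.27 ± 0.08, and the ribonucleotide reductase genes Rrm1 and Rrm2 fell in ST-HSCs by 0.22 ± 0.06 and 0.35 ± 0.08. The Polo-like kinase genes Plk1 (-0.08 ± 0.14 in LT-HSCs and -0.41 ± 0.14 in ST-HSCs) and Plk3 (0.03 ± 0.18 and 0.46 ± 0.18) did not pass. Pseudogenes of Trp53 and Mdm4 had at most 6 and 11 counts in any library.

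**Figure D4:**
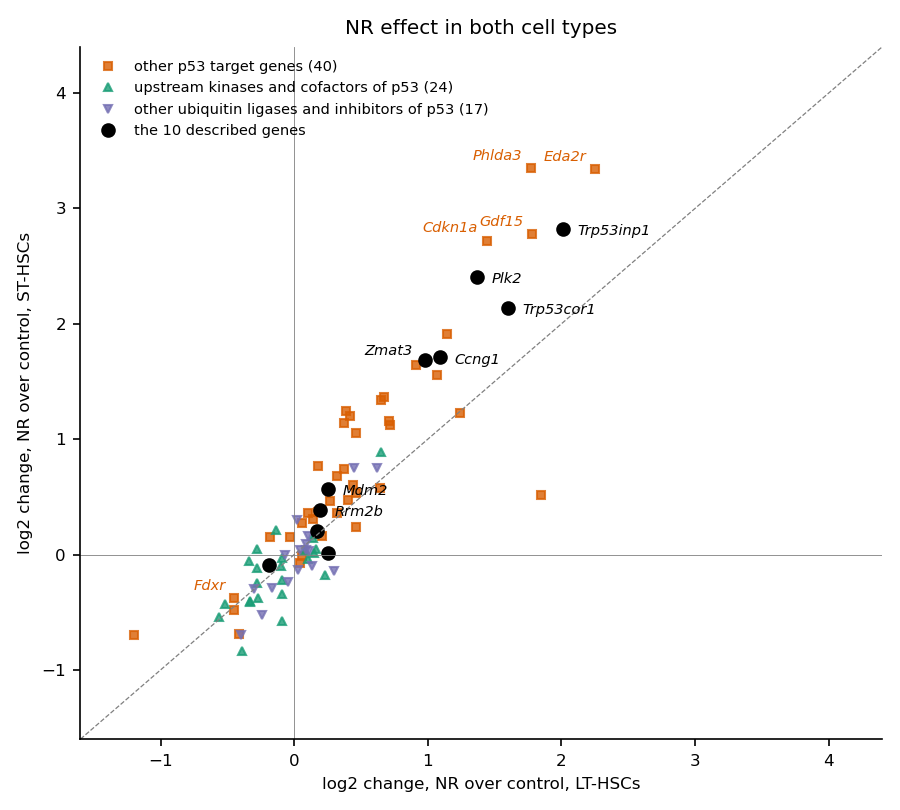
Log2 change of NR over control in LT-HSCs (horizontal) and ST-HSCs (vertical) for the 10 genes (black) and for 3 lists of other p53 pathway genes, with the dashed line marking equal changes. Targets spread up to 2.25 in LT-HSCs and 3.35 in ST-HSCs, while the upstream and inhibitor genes lie between -0.84 (Prkdc) and 0.89 (Ppp1r13b) in ST-HSCs.

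Other genes with the Ccng1 type of promoter element were looked up, after the values had been seen. Of the 29 windows' genes 20 were in the count table and 9 were tested. In LT-HSCs 3 were higher with NR (Ccng1, Cdkn1a and Gtse1) and 1 lower (Mthfd1), and in ST-HSCs 5 were higher, Calhm2 and Sptbn4 being added, and 1 lower (Mthfd1). Over all genes tested 2.38% were higher and 7.58% lower in LT-HSCs, and 5.82% and 11.1% in ST-HSCs. Ccng1, from which the search started, is among the 9, and the counts are not read as a result about the element. Gtse1, whose product is known to shuttle p53 out of the nucleus, rose by 0.69 ± 0.09 in LT-HSCs and 0.81 ± 0.09 in ST-HSCs. Mthfd1, a folate enzyme gene, fell by 0.59 ± 0.07 and 0.54 ± 0.07. The elements of the 4 genes called in both cell types, each with 1 mismatch to the consensus, are shown 5′ to 3′ on the strand of the gene; that of Cdkn1a lies at chr17:29090928-29090947, that of Gtse1 at chr15:85859945-85859964, that of Mthfd1 at chr12:76255090-76255109 and that of Ccng1 at chr11:40755462-40755481.
Ccng1: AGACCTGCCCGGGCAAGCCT
Cdkn1a: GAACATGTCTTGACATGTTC
Gtse1: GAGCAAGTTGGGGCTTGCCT
Mthfd1: AAACTTGCTCAGACAGGCCC

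Genes with the most similar profile over the 12 libraries were named by Pearson's r of log2 CPM, which is a description, since all genes share the same libraries and depth. The nearest gene of Ccng1 was Sqstm1 (r = 0.975). Slc8b1 was among the 3 nearest genes of Ccng1 (0.975), Trp53inp1 (0.986) and Trp53cor1 (0.988), and Susd6 among those of Trp53inp1 (0.979) and Trp53cor1 (0.989). The nearest gene of Trp53cor1 was Smox (0.991), that of Mdm2 was Btg2 (0.986), itself a p53 target, that of Zmat3 was Fbxo4 (0.972), followed by Tnfsf4 (0.971), and that of Plk2 was Rab5b (0.990). Eda2r was among the nearest of both Zmat3 (0.967) and Trp53inp1 (0.977). Trp53 itself was nearest to Rnaseh2a (0.987) and Eif3h (0.977), Mdm4 to Kdm6a (0.939), and Rrm2b to Primpol (0.861).

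Transcripts of other blood cells differed between the groups as well. The summed level of 10 megakaryocyte genes was 3190 to 4150 CPM in NR LT-HSCs and 4330 to 4830 CPM in control LT-HSCs, and 2570 to 3270 CPM in NR ST-HSCs and 3960 to 4270 CPM in control ST-HSCs. Of these, 3 fell in LT-HSCs (Vwf, Itga2b and Pf4), and in ST-HSCs 4 fell (Gp9 in addition) and Selp rose by 0.27 ± 0.09. The summed level of 12 neutrophil and monocyte genes overlapped (81.2 to 201 CPM in NR LT-HSCs and 106 to 148 CPM in control LT-HSCs, and 110 to 198 CPM in NR ST-HSCs and 102 to 151 CPM in control ST-HSCs), with Cd68 higher in both cell types (0.84 ± 0.20 in LT-HSCs and 2.17 ± 0.21 in ST-HSCs) and Tyrobp higher in ST-HSCs (1.64 ± 0.23). Erythroid genes (10) summed to 69.2 to 76.9 CPM in NR LT-HSCs and 93.2 to 99.1 CPM in control LT-HSCs, and 34.6 to 40.2 CPM in NR ST-HSCs and 50.9 to 61.5 CPM in control ST-HSCs; Epor fell in both cell types (-0.71 ± 0.14 in LT-HSCs and -1.04 ± 0.15 in ST-HSCs). Lymphoid genes summed to 29.0 to 38.0 CPM and mast cell and basophil genes to 6.07 to 31.2 CPM over all groups. Hba-a2 was at 0 in the NR LT-HSC and control ST-HSC libraries and Ncr1 in the control LT-HSC libraries. The part of these cells in the changes of the 10 genes was not tested, and in bulk samples fewer cells of a type and less RNA per cell cannot be told apart.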

How the data were processed

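RNA of 12 samples, 3 in each of 4 groups, was amplified from 2.5 ng with SMART-seq v4 and made into Nextera XT libraries, per the labels' protocols. The deposited values are raw counts per gene, and the authors used FastQC 0.11.2, STAR 2.5.0b and HTSeq 0.6.1, per the submitters' processing notes. Genome build, annotation and strand setting were not given in the sources used here. Rows that name no gene were left out of library sizes and of all tests. They included reads in no feature, which made up 8.69% to 28.5% of a library, and ambiguous reads, at 3.3% to 4.38%.

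Counts were scaled with TMM factors and tested with edgeR 4.0.16 (R 4.3.3, quasi-likelihood, two-sided) in 1 fit with a mean per group. Genes passed a filter on low counts (at least 10 counts, scaled to library size, in 3 libraries and 15 in total), which left 19830 of 53465 genes, all 10 described genes included. P-values were adjusted by Benjamini-Hochberg over all genes tested, with a threshold of 0.05. The biological coefficient of variation was 0.402, from the common dispersion over all genes tested, and it does not describe the spread of the 10 genes. Errors of log2 changes are SE, and intervals are 95%. Columns not used numbered 0. No pair of libraries in a group agreed within sampling noise.

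Levels per kilobase used GENCODE M21 exons (GRCm38), and promoter windows came from RefSeq. The 10 genes and all lists were chosen with earlier results of these data known. Named from each list were up to 5 rises and 5 falls with the smallest p in each cell type, or all called genes where under 6 were called, and the 3 genes most like each described gene among genes averaging at least 5 CPM. Not all of these are printed, and the nearest gene of Ppm1d is not reported here.

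Groups share sample numbers 1 to 3. In each group sample 1 had the fewest genes with any count and sample 3 the most. These were 22311 and 39290 in NR LT-HSCs, 25188 and 34024 in control LT-HSCs, 21881 and 38799 in NR ST-HSCs, and 26264 and 34834 in control ST-HSCs. The labels do not say what the numbers mark, and the main fit does not use them. Deviations of same-numbered samples from their group means correlated at -0.01 to 0.63 over 18 pairs, 13 of them above 0.1. All 3 pairs were above 0.1 for NR against control LT-HSCs (0.49, 0.24 and 0.50) and for NR LT-HSCs against NR ST-HSCs (0.63, 0.33 and 0.60), but not for NR against control ST-HSCs (0.21, -0.01 and 0.24). Alternatives were other scaling factors, DESeq2 1.42.0, limma-voom (limma 3.58.1) with quality weights, no filter, a filter at 5 CPM, the sample number as a block, the share of reads in no feature as a covariate, only the groups compared, and leaving out each sample or both libraries above 20% of reads in no feature.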

Additional observations from a re-analysis of the deposited data

How the results depend on the processing

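The genes called with NR in LT-HSCs (Ccng1, Zmat3, Trp53inp1, Trp53cor1 and Plk2) and in ST-HSCs (these and Mdm2) kept direction and call under all 16 alternatives of each comparison. Over single genes and alternatives, 985 results kept direction and side of the threshold, 16 lost the threshold, 37 gained it and 22, none of them called, changed sign. Of the 10 genes, 5 were lower in LT-HSCs than in ST-HSCs under NR with upper-quartile factors, with DESeq2 and with the filter at 5 CPM. Leaving out each sample gave 0 to 5. The count over all genes moved too, from 451 in the main fit to 765 with upper-quartile factors. It was 279 to 957 over all settings that kept every sample or left out both libraries, and 306 to 520 when each sample was left out. For the difference of the NR effects, DESeq2 called 3 of the 10 lower, against 0.479% of all genes, and the fit with no filter 1. Over all genes these settings called 2 to 95 lower, against 2 in the main fit. With the replicate block, 1 gene (Trp53) was lower with NR in LT-HSCs, against 9.57% of all genes. In the mean of both cell types the block and the covariate each gave 1, against 17.9% and 17.7% of all genes. The block also added Mdm2 in LT-HSCs and between the NR groups, and changed no other call. Causes were not tested.

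Signs changed for Rrm2b between control groups with limma-voom (-0.05) and for Ccng1 between control groups with the covariate (-0.01). Trp53 changed sign in ST-HSCs without both libraries with many reads in no feature (0.07). Leaving out single samples gave, for the difference of effects, -0.02 to 0.44 for Mdm4 and -0.13 to 0.04 for Ppm1d. Between the NR groups it gave -0.20 to 0.12 for Mdm4 and -0.27 to 0.02 for Rrm2b. Between the control groups it gave -0.01 to 0.11 for Mdm2, -0.01 to 0.16 for Ccng1, -0.10 to 0.00 for Ppm1d, -0.00 to 0.20 for Trp53inp1, -0.15 to 0.04 for Trp53cor1 and -0.07 to 0.25 for Rrm2b. In ST-HSCs the NR change ran from -0.14 to 0.07 for Trp53 and from -0.02 to 0.13 for Mdm4.

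With other settings than leaving out a sample, the number of all genes called higher and lower with NR was 521 to 1261 and 877 to 1898 in LT-HSCs, against 472 and 1503, and 1297 to 2049 and 1229 to 2725 in ST-HSCs, against 1155 and 2193. For the mean of both it was 1763 to 2574 and 2080 to 3551, against 1563 and 3189, and for the difference of effects 0 to 41 and 2 to 95, against 0 and 2. For LT-HSCs over ST-HSCs it was 770 to 1146 and 249 to 727 in control, against 696 and 298, and 489 to 1106 and 279 to 957 under NR, against 753 and 451. Leaving out single samples gave 242 to 464 and 835 to 1082 in LT-HSCs (lowest without NR sample 1 and without control sample 2), 833 to 1375 and 1010 to 2130 in ST-HSCs (1010 without NR sample 3), 1273 to 1899 and 2165 to 3156 for the mean, 0 to 10 and 0 to 7 for the difference, 470 to 566 and 165 to 234 between the control groups, and 514 to 750 and 306 to 520 between the NR groups.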
